A study of Mus musculus with 24 samples.

Results

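Dnase1l3, Gatm, Aass, Hpgd, Gpr182, Oit3, Adam23 and Gpc1 are 8 genes that liver sinusoidal endothelial cells (ECs) transcribe, 4 of them encoding enzymes and 4 encoding proteins of the cell surface or secreted from it. They were selected on measured values of this series, namely how deeply their counts were reduced in ECs when stellate cells lacked *Gdf2* and *Bmp10* (HSC-KO), how much each HSC-KO library kept, and the trace of them in whole liver. Their values in those 2 comparisons are therefore given as a description without a test. All 8 symbols were found in each of the 4 count tables, which hold 48820 entries each, and all 8 passed the filter on low counts in every comparison.

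In *Gdf2/Bmp10* HSC-KO mice, an *Lrat* Cre deletes floxed alleles of *Gdf2* (encoding BMP9) and *Bmp10* in hepatic stellate cells (HSCs), and control mice served for comparison. ECs were sorted as CD45-CD31+ cells and liver macrophages as CD45+Ly6C-F4/80+CD64+ cells at the age of 8 to 10 weeks, and whole livers came from mice of 12 weeks. A second pair of macrophage groups came from Smad4FF mice, which carry floxed *Smad4*, and from Smad4FF cKO mice, in which a *Vav1* Cre deletes *Smad4* in hematopoietic cells. The labels give the strain of all mice as C57BL/6 and the methods a C57BL/6J background, each of the 8 groups had 3 libraries, and the methods describe these as independent biological replicates. Since a sort or a liver piece yields bulk RNA, fewer cells of a type and less RNA per cell cannot be told apart in any of these values.

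Liver sinusoidal ECs form a fenestrated lining without a continuous basement membrane, and they clear waste molecules, DNA and chemokines from portal blood. BMP9 and BMP10 signal to them through the receptor ALK1 and the coreceptor endoglin. DNASE1L3 is a secreted endonuclease that digests DNA in chromatin and in microparticles, and its loss leads to autoimmunity against DNA. GATM makes guanidinoacetate, the precursor of creatine, AASS opens the breakdown of lysine through saccharopine, and HPGD is the dehydrogenase that inactivates prostaglandins. GPR182 is an atypical receptor that takes up chemokines, OIT3 carries a zona pellucida domain, ADAM23 is a member of the disintegrin family without protease activity, and GPC1 is a heparan sulfate proteoglycan held by a lipid anchor.

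In GENCODE vM21 on GRCm38, all 8 are protein-coding genes. Dnase1l3 lies at chr14:7964533-7994573 on the minus strand, Gatm at chr2:122594467-122611303 on the minus strand, Aass at chr6:23072173-23132986 on the minus strand and Hpgd at chr8:56294585-56321043 on the plus strand. Gpr182 lies at chr10:127747276-127751732 and Oit3 at chr10:59422958-59441778, both on the minus strand of the same chromosome. Adam23 at chr1:63445891-63596276 and Gpc1 at chr1:92831645-92860779 are both on the plus strand. Exons of Gpc1 share 977 bases, 18.9% of their length, with *Ankmy1* on the opposite strand, and exons of Gpr182 share 74 bases with *Zbtb39*. Whether reads were counted by strand is not given in the sources used here, so reads in these stretches cannot be assigned with certainty. The exons of the other 6 overlapped no other gene.

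RefSeq promoter sequences on GRCm38.p6 were at hand for 4 of the 8 members, Gatm, Aass, Hpgd and Adam23. The 250 bases before the start site are shown for Aass and Gatm because these enzymes differed in how evenly they were reduced, Aass being reduced to the same trace in every HSC-KO EC library and Gatm to a depth that differed between libraries. Both are on the minus strand and are written 5′ to 3′, Aass from chr6:23132987-23133236 and Gatm from chr2:122611278-122611527. Capitals mark CCAAT, the letters of the CCAAT box, on either strand.
Aass: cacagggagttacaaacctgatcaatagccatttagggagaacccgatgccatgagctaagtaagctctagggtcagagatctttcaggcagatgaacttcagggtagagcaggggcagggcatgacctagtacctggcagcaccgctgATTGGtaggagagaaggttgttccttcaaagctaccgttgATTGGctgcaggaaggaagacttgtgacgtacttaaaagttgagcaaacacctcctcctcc
Gatm: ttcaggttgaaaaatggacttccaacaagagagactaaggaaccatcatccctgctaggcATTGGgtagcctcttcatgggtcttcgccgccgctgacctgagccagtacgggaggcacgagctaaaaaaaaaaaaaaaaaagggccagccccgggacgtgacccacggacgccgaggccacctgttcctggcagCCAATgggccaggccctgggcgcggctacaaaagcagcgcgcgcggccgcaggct
Each of them held 2 matches to CCAAT. In Aass both were on the opposite strand, their matches beginning 101 and 61 bases before the start site. In Gatm, 1 match on the opposite strand began 190 bases and 1 on the gene's strand 55 bases before it. Hpgd and Adam23 held no CCAAT in this window, and 33.8% of all 32851 promoter windows of this length held at least 1. The 4 windows were also searched on either strand for letters bound by other factors, and none of these was found in any of them. The letters AGATAA, bound by factors of the GATA family, were in 9.99% of all windows. Of letters bound by SMAD proteins, GGCGCC was in 9.59% and the palindrome GTCTAGAC in 0.167% of all windows. The letters TGCTGAC, bound by MAF proteins, were in 3.81%, and the box TATAAA of core promoters was in 12.4%. The CCAAT and TATAAA searches were added after the other 4 had found nothing, and no match says only that these letters are absent from the window.

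The level in control ECs spanned more than 3 orders of magnitude. Per kilobase of exon, Dnase1l3 had a mean of 38280 CPM (counts relative to the library's TMM-scaled total) with a range of 27840 to 45800 over the 3 control EC libraries. Oit3 followed at 688.9 (660 to 711.3), Gatm at 376.6 (264.3 to 532.8) and Gpr182 at 345.1 (307.8 to 384.2). The ranges of Gatm and Gpr182 overlapped, so their order is not fixed by these libraries. Aass had 61.6 (57.4 to 63.8), Hpgd 47.2 (42.5 to 50.8), Adam23 26.99 (20.3 to 36.0) and Gpc1 14.4 (10.8 to 17.1) CPM per kilobase, with no overlap between neighbours. The length used merges the exons of all transcripts, 17907 bases over 12 transcripts for Adam23 and 1683 bases over 1 for Hpgd, so the order depends on it. Without division by length, Adam23 had a mean of 483.2 CPM, above Aass (235.2) and Hpgd (79.5). As a share of all counts, Dnase1l3 alone took 14%, 20.4% and 18.5% of control EC replicates 1, 2 and 3 (exact 95% binomial intervals 13.99 to 14%, 20.43 to 20.45% and 18.46 to 18.48%, which cover counting error only). It was the most abundant gene in each, whereas the other 7 members together took 0.427% to 0.505%.

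Control ECs were set beside control macrophages to describe where the members are expressed. The depth of loss that chose the members was measured against these same control EC libraries, so the values are a description without a test, here and against liver below. In this comparison 7 of 8 members met the thresholds for a call (adjusted p below 0.05 in edgeR and more than a 2-fold change) as higher in ECs, as did 17.9% of all genes tested, and nothing is read from that count. Adam23 was 164-fold higher (log2 fold change 7.36, SE 1.495), Oit3 had a log2 fold change of 6.79 (SE 1.22), Gpr182 was 102-fold higher and Dnase1l3 35.5-fold. Gatm differed least among the 7, at 2.83-fold (log2 fold change 1.501, SE 0.31). Hpgd was 4.07-fold lower in ECs than in macrophages (log2 fold change -2.03, SE 0.14), in the direction in which 18% of all genes were called, and its groups did not overlap. Control EC replicate 3 and control macrophage replicate 2 carry the same label number, B26, so these libraries may come from 1 mouse and were fitted as independent. The fit without either of them again placed 7 members higher and 1 lower.

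Against control liver, whose values also had a part in choosing the members, 6 of 8 met the thresholds as higher in control ECs (26.6% of all genes did). Hpgd met them as lower, at 2.09-fold (33.3% of all genes did), and Aass was 1.65-fold lower and short of the fold threshold (log2 fold change -0.72, SE 0.23). With scaling by library size alone, Hpgd missed the fold threshold too (log2 fold change -0.74). Dnase1l3 stood far from the other 5 that were higher. It was 1690-fold more abundant in sorted ECs (log2 fold change 10.72, SE 0.58), with 160700 ± 39050 CPM (mean ± SD, n = 3) in ECs and 95.3 ± 7.54 CPM in livers when both were scaled together. Gatm followed at 63.4-fold, Oit3 at 33.6-fold, Gpr182 at 25.4-fold, Adam23 at 14.3-fold and Gpc1 at 10.3-fold. For comparison, 12 genes that ECs of most organs share (such as *Pecam1*, *Kdr* and *Tie1*) were between 2-fold and 54.3-fold higher in ECs, with a median of 23.5-fold, and 18 other sinusoidal genes (such as *Stab2*, *Clec4g* and *Lyve1*) between 2.34-fold and 77.3-fold, with a median of 22.7-fold. Among 7652 genes with at least 10 CPM in control ECs, Dnase1l3 had the second largest fold, after *4933415A04Rik* (1840-fold at 64.2 CPM), a gene named here after its value was seen. The ECs and livers differed in mouse age, in digestion and sorting, and in RNA extraction (an RNeasy column for cells, TRIzol for livers), and none of these can be told apart from the cell population.

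**Figure D1:**
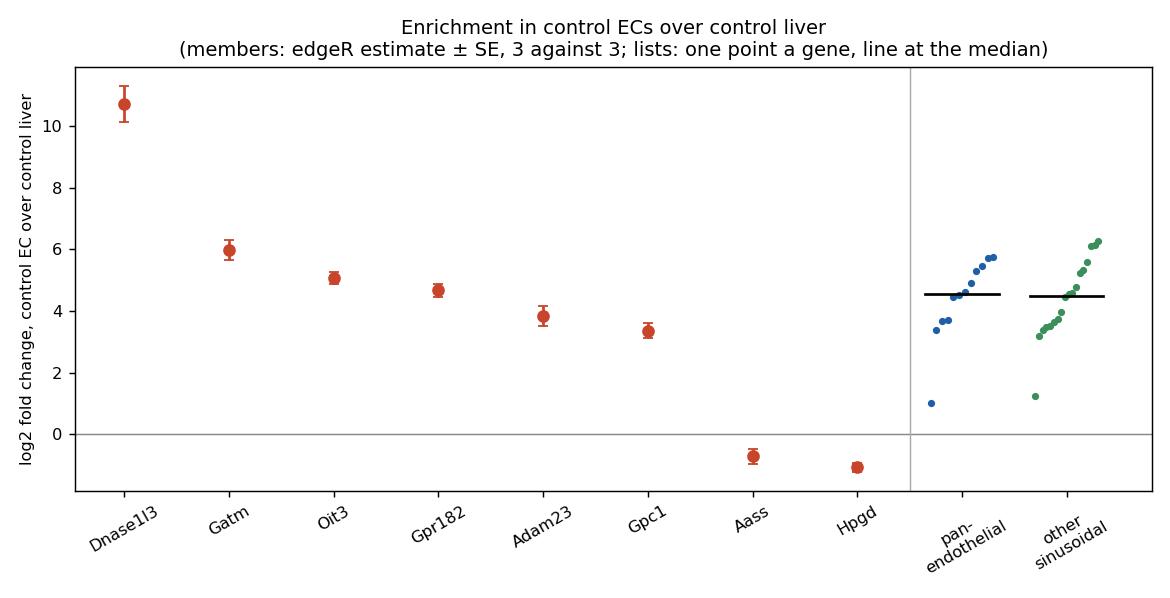
Log2 fold change of control ECs over control livers (y axis) for each member (red points with SE, 3 libraries a group) and for each gene of 2 endothelial lists (small points, line at the median). Dnase1l3 sits at 10.72, above every gene of both lists, while Aass (-0.72) and Hpgd (-1.06) sit below 0.

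The comparison of HSC-KO with control ECs chose the members, and it showed all 8 lower in every HSC-KO library than in any control library (20.2% of all 16053 genes tested were). Of the 8, 5 also met the thresholds for a call (Gatm, Aass, Gpr182, Oit3 and Gpc1; 6.01% of all genes were called lower), and Dnase1l3, Hpgd and Adam23 did not. Without HSC-KO replicate 1 all 8 met them (1191 of 16648 genes tested were called lower there). Nothing is read from these counts, since the same contrast selected the genes. The enzymes come first below, then the surface proteins, with CPM in control replicates 1, 2 and 3 and then in HSC-KO replicates 1, 2 and 3.

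Dnase1l3 had 143400, 235900 and 212200 CPM in control and then 51970, 2565 and 1082 CPM after the deletion (log2 fold change -3.41, SE 1.35). HSC-KO replicate 1 kept 26.4% of the control mean, and replicates 2 and 3 kept 1.3% and 0.549%. With 5.57% of its counts, Dnase1l3 was still the most abundant gene of HSC-KO replicate 1, whereas it had rank 33 and rank 85 in replicates 2 and 3. Gatm had 793.3, 1599 and 998.2 CPM in the controls and 168.8, 24.6 and 13.1 CPM in HSC-KO ECs (log2 fold change -4.04, SE 0.96). Control replicate 2 stood above the other control libraries, and HSC-KO replicate 1 above the other HSC-KO libraries. Hpgd had 81.5, 71.6 and 85.4 CPM in the controls and 16.2, 0.81 and 0.893 CPM in HSC-KO ECs (log2 fold change -3.73, SE 1.12). Aass was different from these 3. It had 219, 243.3 and 243.4 CPM in the controls and 0.615, 0.67 and 0.758 CPM in HSC-KO ECs, a log2 fold change of -8.43 with an SE of only 0.17, and the 3 HSC-KO libraries rested on 58, 48 and 62 counts.

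Of the surface proteins, Gpr182 was reduced least, from 1519, 1357 and 1217 CPM to 337.4, 64.1 and 71.1 CPM (log2 fold change -3.11, SE 0.65). Oit3 went from 1983, 1840 and 1939 CPM, the tightest control group of the 8, to 139.1, 12.9 and 12.8 CPM (log2 fold change -5.13, SE 1.02). Adam23 had 442.4, 643.9 and 363.4 CPM in the controls and 55.8, 1.14 and 0.648 CPM in HSC-KO ECs (log2 fold change -4.65, SE 1.58). The SE of Adam23 was the largest of the 8, and its HSC-KO libraries held 5256, 82 and 53 counts. Gpc1 was reduced most, from 88.0, 79.0 and 55.9 CPM to 0.435, 0.0698 and 0.0245 CPM (log2 fold change -8.63, SE 0.80). Its 3 HSC-KO libraries held 41, 5 and 2 counts, so the depth of its loss is known only within the counting error of those few reads.

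**Figure D2:**
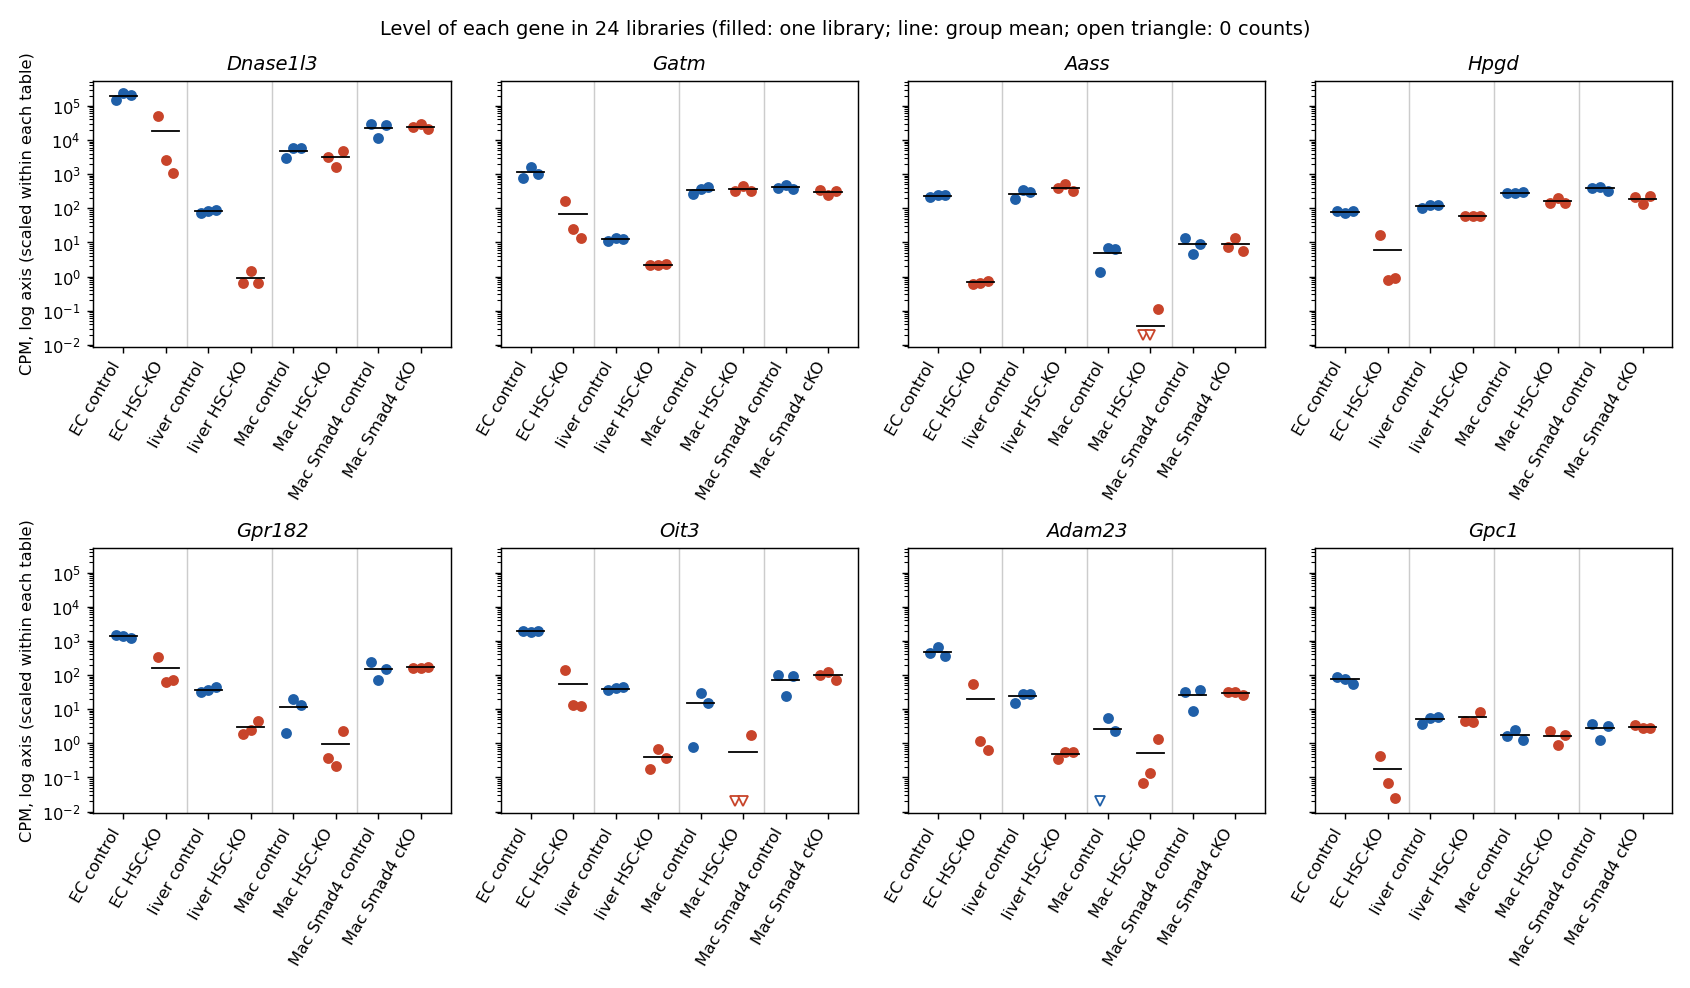
CPM of each member (log axis, scaled within each count table) in all 24 libraries, 3 for each of 8 groups along the x axis, with the group mean as a line. In ECs every HSC-KO library lies below every control library for all 8 genes, and HSC-KO replicate 1 (left point of its group) lies well above the other 2 for 7 of them, Aass being the exception.

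The share of the control mean that each HSC-KO EC library kept separated the members. Replicate 1 kept 26.4% of Dnase1l3, 24.7% of Gpr182, 20.3% of Hpgd, 14.9% of Gatm, 11.5% of Adam23 and 7.24% of Oit3. Replicates 2 and 3 kept 1.3% and 0.549% of Dnase1l3, 4.7% and 5.21% of Gpr182, 1.02% and 1.12% of Hpgd, 2.18% and 1.16% of Gatm, 0.237% and 0.134% of Adam23, and 0.674% and 0.664% of Oit3. The ratio of replicate 1 to the mean of replicates 2 and 3 was 62.2 for Adam23, 28.5 for Dnase1l3, 19 for Hpgd, 10.8 for Oit3, 9.23 for Gpc1, 8.97 for Gatm and 4.99 for Gpr182. Gpc1 kept only 0.586% in replicate 1, and its ratio rests on 41, 5 and 2 counts, so its place among these is uncertain. For Aass the ratio was 0.862, since the 3 libraries kept 0.262%, 0.285% and 0.322%.

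The median over the 8 members was 13.2% in replicate 1, 0.846% in replicate 2 and 0.606% in replicate 3. Over the 18 other sinusoidal genes it was 21.8%, 4.49% and 3.95%, and over the 627 genes called lower that had at least 10 CPM in control ECs it was 40.1%, 27.5% and 28.1%. Replicate 1 held the highest of the 3 values for 7 of 8 members, 16 of 18 other sinusoidal genes and 80.4% of those 627 genes. The sets were called lower, or the members picked, with these libraries, so these shares are descriptions. Among the other sinusoidal genes *Fcgr2b*, with 21.6%, 1.8% and 0.981%, and *Clec4g*, with 1.15%, 0.0718% and 0.0537%, had the largest ratios of replicate 1 to the others, at 15.5 and 18.3, leaving out *Cd209b*, which was at 0 in replicates 2 and 3. *Kit* (4.08%, 9.84% and 10.7%) and *Flt4* (30.2%, 35.4% and 27.9%) did not have their highest value in replicate 1. These examples were picked after their values were seen.

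**Figure D3:**
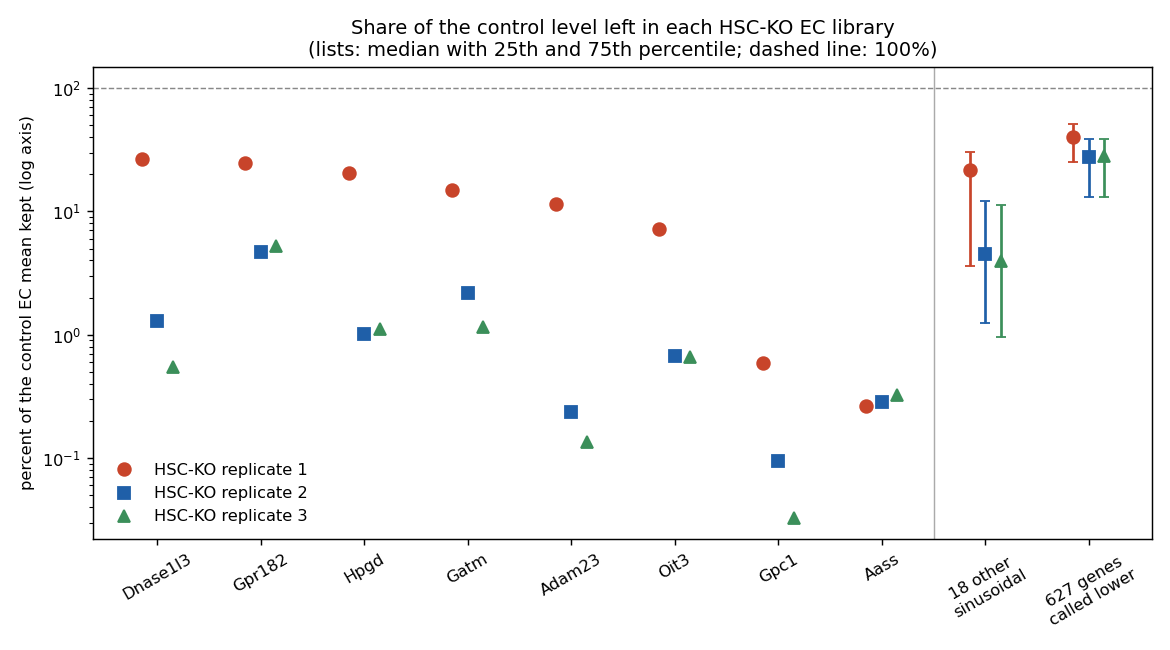
Percent of the control EC mean kept (log axis) in HSC-KO replicates 1 (circles), 2 (squares) and 3 (triangles) for each member, and as the median with 25th and 75th percentiles for 18 other sinusoidal genes and 627 genes called lower. The 3 symbols of Aass lie together near 0.3%, while those of Adam23 run from 11.5% to 0.134%.

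Other values of these libraries are given beside this difference, and their part in it was not tested. *Gdf2* had 241, 108 and 76 counts in the control EC libraries and 0, 5 and 0 in HSC-KO replicates 1, 2 and 3. The 12 pan-endothelial markers summed to 10330 to 11170 CPM in control and 10850 to 11810 CPM in HSC-KO ECs, with none of them at 0, and 0 of the 12 were called in either direction (7 had an unadjusted p below 0.05 in edgeR's quasi-likelihood test, and 4 an adjusted p below 0.05 with less than a 2-fold change; 2 were called with scaling by library size alone). The 5 markers of continuous endothelium (*Cd34*, *Emcn*, *Plvap*, *Apln* and *Aplnr*) were all called higher in HSC-KO ECs, against 7.68% of all genes, and summed to 4220 CPM in replicate 1, 5946 in replicate 2 and 6755 in replicate 3, from 356.1 to 510.6 CPM in controls. HSC-KO replicates 1 and 3 both had *Xist* counts (2391 and 3491) and no *Ddx3y* counts, and replicate 2 had the reverse (0 and 4308). The label number of replicate 1, B5, is also that of macrophage HSC-KO replicate 3, as B27 is that of EC HSC-KO replicate 3 and macrophage HSC-KO replicate 2. Macrophage HSC-KO replicate 3 held 212 CPM of 4 Kupffer cell markers against 74.3 and 39.7 CPM in macrophage HSC-KO replicates 1 and 2. Those 4 markers (*Clec4f*, *Vsig4*, *Cd5l* and *Timd4*) summed to 21.7 to 23.3 CPM in control ECs, 0.077% to 0.0827% of their level in control macrophages, and in HSC-KO ECs all 4 were at 0 in replicates 1 and 3 and 3 of them in replicate 2. Since HSC-KO macrophages themselves held little of these markers, 5 general macrophage markers (such as *Csf1r* and *Cd68*) were read too, and they summed to 13.4 to 20.2 CPM in control and 1.89, 3.35 and 1.99 CPM in HSC-KO ECs. At the Kupffer marker share in control ECs, the macrophage level of Hpgd, the member most abundant in macrophages relative to ECs, amounts to 0.219 to 0.235 CPM of the 71.6 to 85.4 CPM in control ECs. Library totals over the series ran from 60911527 to 110879155 counts.

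In whole liver, HSC-KO was compared with control to see how far the loss in ECs leaves a trace in the tissue. Of the 8, 5 were called lower (Dnase1l3, Gatm, Gpr182, Oit3 and Adam23; 1.45% of all genes were), and those 5 and Hpgd were lower in every HSC-KO liver than in any control liver (10.9% of all genes were). Livers also chose the members, so no test is given. Dnase1l3 had 75.3, 82.5 and 87.3 CPM in the controls and 0.643, 1.43 and 0.641 CPM in HSC-KO livers (log2 fold change -6.49, SE 0.35). Oit3 had 35.2, 40.5 and 44.0 CPM in the controls and 0.174, 0.666 and 0.376 CPM in HSC-KO livers (log2 fold change -6.60, SE 0.42). Both were left at 0.436% to 1.75% of the control mean, and no HSC-KO liver kept more than the others in the way EC replicate 1 did.

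Adam23 had 15.5, 28.2 and 27.1 CPM in control livers and 0.348, 0.571 and 0.557 CPM in HSC-KO livers (log2 fold change -5.58, SE 0.33). Gpr182 had 31.3, 37.3 and 44.0 CPM in the controls and 1.89, 2.43 and 4.44 CPM in HSC-KO livers (log2 fold change -3.68, SE 0.33), so that 5.04% to 11.8% of the control mean was left. Gatm had 11.4, 13.2 and 12.8 CPM in the controls and 2.18, 2.25 and 2.34 CPM in HSC-KO livers (log2 fold change -2.46, SE 0.16), which left 17.5% to 18.8%. Hpgd went from 99.95, 121.3 and 126.4 CPM to 59.96, 60.5 and 61.4 CPM (log2 fold change -0.93, SE 0.13), short of the fold threshold. The groups of all 4 were apart, with the share left being smallest for Adam23 and largest for Hpgd.

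The other 2 members showed no loss in liver. Aass had 181.6, 337.6 and 292.5 CPM in control livers and 385.2, 502.2 and 311.7 CPM in HSC-KO livers (log2 fold change 0.56, SE 0.26), and Gpc1 had 3.69, 5.63 and 5.80 CPM and then 4.596, 4.24 and 8.33 CPM (log2 fold change 0.18, SE 0.32). The groups overlapped for both. Of the 8 members, Aass and Gpc1 had the lowest log2 fold changes in sorted ECs (-8.43 and -8.63). In HSC-KO EC replicates 2 and 3, Adam23 kept less of its control mean (0.237% and 0.134%) than Aass (0.285% and 0.322%). The level of Aass in control livers was 77.2% to 144% of that in control ECs, on the CPM scale with each table scaled on its own, and that of Gpc1 4.96% to 7.8%, whereas Dnase1l3 had 0.0382% to 0.0443% and the pan-endothelial marker sum 2.43% to 2.95%. That sum was 259.7 to 315.1 CPM in control and 326.3 to 390.3 CPM in HSC-KO livers, and 0 of its 12 genes were called lower (1 was called higher). Hepatocytes, which make up most of the liver, are known to degrade lysine, and 6 hepatocyte markers summed to 104600 to 129400 CPM in control and 135400 to 183700 CPM in HSC-KO livers. In the same livers the 4 Kupffer cell markers summed to 219.2 to 388.9 CPM in control and 0.603 to 1.83 CPM in HSC-KO livers, and the 5 macrophage markers to 128.4 to 217.2 and 41.9 to 64.0 CPM. Sorted control macrophages held Hpgd, Gatm and Dnase1l3. The part of hepatocytes and macrophages in the liver values of the members was not tested.

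Macrophages gave a comparison that was not named in selecting the members, though these were chosen with earlier results of these data known. Label numbers B26, B5 and B27 occur in both the EC and the HSC-KO macrophage comparison, so those libraries may come from the same mice. Between HSC-KO and control macrophages, 1 of 8 members was called lower (5.34% of all genes were) and none higher, and 2 had no overlap between the groups in the lower direction (19.6% of all genes did). Hpgd, which macrophages express above the EC level, had 271.9, 278.1 and 303.1 CPM in control and 146, 196.4 and 140 CPM in HSC-KO macrophages. The groups were apart, and the log2 fold change of -0.82 (SE 0.15; edgeR, adjusted p = 0.00937) passed the p threshold but not the fold threshold. In the same libraries the 4 Kupffer cell markers summed to 27190 to 28800 CPM in control and 39.7 to 212 CPM in HSC-KO macrophages, all 4 being called lower, the 5 general macrophage markers to 11760 to 13070 and 8651 to 9206 CPM, and 4 lymphocyte markers to 10.4 to 19.2 and 28.8 to 90.6 CPM. The 12 pan-endothelial markers summed there to 51.1 to 194.9 CPM in control and 12.1 to 51.2 CPM in HSC-KO macrophages. The part of all these markers in the values of the members was not tested. Aass was called lower (log2 fold change -6.98, SE 1.27, adjusted p = 0.00831), from 1.35, 6.72 and 6.36 CPM to 0, 0 and 0.11 CPM. These rest on 114, 571 and 364 counts in control and 0, 0 and 10 counts in HSC-KO macrophages, and a fold change fitted to so few counts depends on the prior count. Without HSC-KO replicate 3, which held those 10 counts, 3 members were called, Gpr182 and Oit3 besides Aass (853 of 16854 genes tested were called lower there).

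Gatm and Dnase1l3 did not pass the test in macrophages. Gatm had 268.2, 358.4 and 425 CPM in control and 319.3, 462.4 and 324.6 CPM in HSC-KO macrophages (log2 fold change 0.07, SE 0.21, adjusted p = 0.85), between 23.7% and 40.9% of control ECs in all 6 libraries. Dnase1l3 had 2978, 5934 and 5657 CPM in control and 3194, 1672 and 4769 CPM in HSC-KO macrophages (log2 fold change -0.60, SE 0.40, adjusted p = 0.351), which is 0.848% to 3.01% of control ECs. In HSC-KO macrophage replicates 1 and 2, where Dnase1l3 was at 1.62% and 0.848% of control ECs, the pan-endothelial marker sum was at 0.127% and 0.113% of control ECs.

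Gpr182, Oit3, Adam23 and Aass were at a trace in macrophages and varied with that marker sum. Aass, given above, was at 0.573%, 2.86% and 2.7% of control ECs in control and at 0%, 0% and 0.0466% in HSC-KO macrophages. Oit3 had 0.78, 29.2 and 15.1 CPM in control and 0, 0 and 1.72 CPM in HSC-KO macrophages (log2 fold change -4.71, SE 1.85, adjusted p = 0.12). Gpr182 had 1.99, 19.6 and 13.4 CPM and then 0.365, 0.22 and 2.23 CPM (log2 fold change -3.63, SE 1.08, adjusted p = 0.0527), and Adam23 0, 5.35 and 2.32 CPM and then 0.0684, 0.136 and 1.35 CPM (log2 fold change -2.30, SE 1.68, adjusted p = 0.389). The groups overlapped for Oit3, Gpr182 and Adam23. The 12 pan-endothelial markers summed to 51.1, 194.9 and 143.3 CPM in control and 13.6, 12.1 and 51.2 CPM in HSC-KO macrophages, 0.478% to 1.82% and 0.113% to 0.48% of control ECs. Libraries low in these markers were mostly also low in Gpr182, Oit3, Adam23 and Aass. Control replicate 1 and HSC-KO replicate 3 had nearly the same marker sum. They had 1.99 and 2.23 CPM of Gpr182 and 1.35 and 0.11 CPM of Aass. Oit3 was at 0.78 and 1.72 CPM there and Adam23 at 0 and 1.35 CPM. That sum includes *Pecam1*, whose mean went from 36.4 to 10.3 CPM between control and HSC-KO macrophages (log2 fold change -1.82, SE 0.47). Its log2 fold change in control ECs over control macrophages was 3.57, against a median of 6.72 for the marker list. Equal sums therefore do not show equal endothelial RNA, and nothing is read from this pair. The part of endothelial RNA in these values was not tested. Gpc1 had 1.22 to 2.52 CPM in control and 0.881 to 2.36 CPM in HSC-KO macrophages (log2 fold change -0.09, SE 0.47, adjusted p = 0.922).

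**Figure D4:**
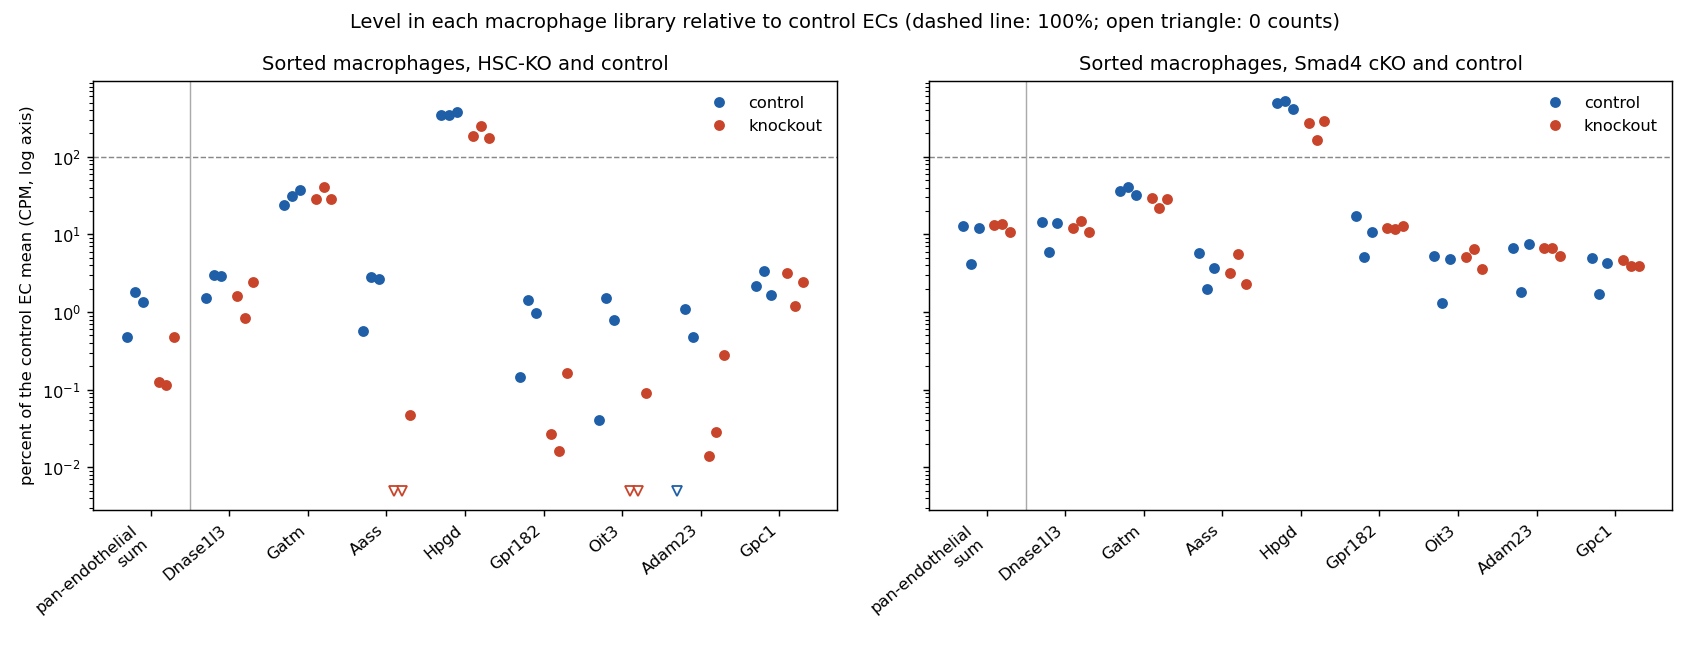
Level of the pan-endothelial marker sum and of each member in every macrophage library, as a percent of the control EC mean (log axis, CPM scaled within each table), for HSC-KO (left) and Smad4 cKO (right) with their controls. Hpgd lies above 100% in all 12 libraries and Gatm between 21.6% and 41.3%, while Gpr182, Oit3, Adam23 and Aass lie at or below 17.5%.

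Deletion of *Smad4*, which carries BMP signals inside the cell, left 0 of 8 members called lower in macrophages (2.67% of all genes were) and 0 higher. In the same edgeR fit 2 members had an unadjusted p below 0.05, Gatm and Hpgd, and DESeq2 called 1, Hpgd (602 of 17517 genes were called lower). Both were lower in every Smad4 cKO library than in any control library (14.5% of all genes were). Hpgd had 394.4, 422.9 and 327.4 CPM in control and 215.5, 131.9 and 228.6 CPM in Smad4 cKO macrophages (log2 fold change -0.99, SE 0.22, adjusted p = 0.0365). It passed the p threshold and stopped just short of the fold threshold. The p threshold was missed without cKO replicate 1 (adjusted p = 0.0902), without control replicate 1 (0.0952), 2 (0.105) or 3 (0.0741), and with library size alone (0.0613). Both thresholds were passed without cKO replicate 3 (log2 fold change -1.14, adjusted p = 0.0449). Gatm had 406, 466.2 and 365.7 CPM in control and 333.8, 243.9 and 323.8 CPM in Smad4 cKO macrophages (log2 fold change -0.46, SE 0.16, adjusted p = 0.151).

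The other 6 members had log2 fold changes between -0.03 and 0.41 there, and edgeR gave them adjusted p from 0.7 to 0.976. Dnase1l3 had 28600, 11580 and 27780 CPM in control and 23900, 29190 and 20990 CPM in Smad4 cKO macrophages. Control replicate 2 was the lowest of the 6 libraries for all 6 of these members, and its pan-endothelial markers summed to 446.9 CPM against 1132 to 1446 CPM in the others. Without it, Dnase1l3 had a log2 fold change of -0.20 and Gpr182 one of -0.22. These libraries held more endothelial RNA by that sum (4.18% to 13.5% of control ECs) than the first macrophage set. Dnase1l3 (5.87% to 14.8%) and Gpr182 (5.09% to 17.5%) reached somewhat higher than the sum. Adam23 (1.79% to 7.5%), Oit3 (1.29% to 6.47%), Aass (1.97% to 5.72%) and Gpc1 (1.73% to 5.02%) lay lower and overlapped it in part. The part of endothelial RNA in these values was not tested either. The 4 Kupffer cell markers, all called lower, summed to 23020 to 29050 CPM in control and 496.6 to 526.1 CPM in Smad4 cKO macrophages, and the 5 general macrophage markers to 9459 to 11220 and 7649 to 9483 CPM, and their part in the values of Hpgd and Gatm was not tested. *Smad4* itself had 35.3 to 42.8 CPM in control and 12.6 to 17.2 CPM in Smad4 cKO macrophages.

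Genes that act beside each member were read from the fit of HSC-KO against control ECs, in which 6.01% of all genes were called lower and 7.68% higher. Of the nucleases of DNA breakdown (*Dnase1*, *Dnase1l1* and their relatives), 0 of 7 tested were called by edgeR's quasi-likelihood test (2 had an unadjusted p below 0.05), and *Dnase1l1* had a mean of 34.2 CPM in control ECs against 29.2 CPM after the deletion. Beside Gatm, *Gamt*, which completes creatine, had a log2 fold change of -0.22 (SE 0.40), the creatine transporter *Slc6a8* one of 0.75 (SE 0.20, adjusted p = 0.0343, under the fold threshold), and the creatine kinase *Ckb* rose (log2 fold change 2.46, SE 0.17, adjusted p = 0.00014), 1 of 3 tested. Beside Aass, *Aldh7a1*, which acts further down lysine breakdown, had a mean of 29.7 CPM in control ECs against 30.3 CPM after the deletion (log2 fold change 0.03, SE 0.14), and of 5 tested only the amino acid transporter *Slc7a1* was called, being higher (log2 fold change 1.98, adjusted p = 0.00278).

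Beside Hpgd, the prostaglandin importer *Slco2a1* fell from 422.1 to 42.9 CPM (log2 fold change -3.30, SE 0.35, adjusted p = 0.000758), and with the reductase *Ptgr1* (log2 fold change -2.09, adjusted p = 0.00816) it made 2 of 8 tested prostaglandin genes called lower, against 6.01% of all genes. Like Gpr182, the atypical chemokine receptors *Ackr4* (log2 fold change -8.40, SE 0.40, adjusted p = 3.94e-05) and *Ackr1* (log2 fold change -3.70, SE 0.45, adjusted p = 0.00139) fell, whereas *Ackr3* rose from 1.7 to 12.4 CPM (log2 fold change 2.86, adjusted p = 0.0117), 2 of 5 tested being called lower and 1 higher, against 6.01% and 7.68% of all genes. *Eng* and *Tgfbr3*, BMP and TGF-beta coreceptors with a zona pellucida domain like OIT3, were both called lower (log2 fold changes -1.31 and -1.02). Of the relatives and ligands of ADAM23, *Adam11* rose from 0.17 to 1.43 CPM (1 of 3 tested) and *Adam22* had a log2 fold change of -0.44 (SE 0.31). Of 5 glypicans and syndecans tested beside Gpc1, the syndecan *Sdc4* fell (log2 fold change -1.54, SE 0.34, adjusted p = 0.0164), *Gpc4* had 2.93 CPM in control ECs against 2.69 CPM after the deletion, and *Gpc3* and *Gpc6* had too few counts to be tested.

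Over all 24 libraries, the 10 genes whose log2 CPM was most like the mean of the 8 members were *Clec4g* (Pearson's r = 0.92), *Mroh7*, *2700046A07Rik*, *6030498E09Rik*, *Plxnc1*, *Gm15675*, *Lyve1*, *Flrt1*, *Gm16268* and *Tmem132e* (r = 0.872), among 15936 genes that passed the EC filter. These are descriptions over libraries that share cell populations and genotypes. *Clec4g* and *Lyve1* encode a lectin and a hyaluronan receptor of sinusoidal ECs, and *Plxnc1* a semaphorin receptor. The members themselves correlated with their mean at r = 0.907 for Adam23, 0.872 for Oit3, 0.816 for Gpr182, 0.692 for Gpc1, 0.643 for Dnase1l3, 0.595 for Gatm, 0.447 for Aass and 0.393 for Hpgd, and each of the 4 enzymes had a lower r than each of the 4 surface proteins. In HSC-KO EC replicate 1, *Tmem132e* kept 15.7%, *Flrt1* 7.28% and *Plxnc1* 6.59% of the control mean, against 0.962%, 0.773% and 0.959% in replicate 2.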

How the data were processed

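RNA-seq libraries of sorted hepatic ECs, whole liver and 2 sets of sorted liver macrophages were analysed from the 4 tables of raw read counts per gene that the authors deposited, with 3 libraries in each of 8 groups. The submitters' processing notes name FastQC, HISAT2, featureCounts and DESeq2, with mm10 as the genome. Their versions, the annotation release, the use of strand and the treatment of multi-mapping reads are not given in the sources used here. From these counts, genes were filtered with filterByExpr (minimum count 10, minimum total 15), scaled by TMM and tested with the quasi-likelihood test of edgeR 4.0.16 in R 4.3.3, with Benjamini-Hochberg adjustment over all genes tested. Calls required the adjusted p to be under 0.05 together with a change of more than 1 on the log2 scale. The SE is the log2 fold change divided by the root of F. CPM were computed with TMM-scaled library sizes within each table, so levels set side by side across tables carry each table's own scale. Control ECs were tested against control macrophages and control livers after the tables were joined over the 48337 symbols that occur once, where a join by row had been planned. Exon lengths and positions came from GENCODE vM21 and promoters from RefSeq, whose table held 4 of 8 members. The procedure was tested on simulated counts with the same dispersion for every gene and no library deviating from its group. That setting does not cover the spread among the HSC-KO EC libraries. Alternatives were DESeq2 1.42.0, its size factors in edgeR, library size alone, no filter or a strict one, a replicate block, and leaving out each library. Dropping Dnase1l3 from library sizes was added after seeing the data. Named genes were the 8 members, the genes that act beside a member, up to 4 called genes with the largest change in each list, and the 10 most alike. The members and lists were chosen with earlier results of these data known.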

Additional observations from a re-analysis of the deposited data

Results flagged for a closer look

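Genes that act beside the members include 4 that lay on 1 side of the control mean in every HSC-KO library of 1 preparation. In another preparation they lay on the other side in every HSC-KO library. *Ptgr1* and *Sdc4* were called lower in ECs (log2 fold changes -2.09 and -1.54) and higher in HSC-KO macrophages (1.41 and 2.45). Over all genes, every HSC-KO library lay below every control library for 20.2% in ECs, 10.9% in liver and 19.6% in macrophages. The reverse held for 20.2%, 8.8% and 20.7%. Opposite pairs over all genes were not counted, so nothing is read from the number 4. The difference between preparations was not tested, and the preparations differ in more than cell type. For each of the 4 genes at least 1 of the sides did not pass edgeR's quasi-likelihood test with Benjamini-Hochberg adjustment. *Slco2a1*, the prostaglandin importer, had a log2 fold change of -3.30 in ECs (SE 0.35, adjusted p = 0.000758) and -4.69 in macrophages (SE 0.84, adjusted p = 0.00767), and one of 0.31 in whole liver that did not pass (SE 0.13, adjusted p = 0.354). The 12 pan-endothelial markers summed to 51.1, 194.9 and 143.3 CPM in those control and 13.6, 12.1 and 51.2 CPM in those HSC-KO macrophages, and their part in the macrophage value was not tested. *Slco2a1* had 383.8 to 452.5 CPM in control and 22.9 to 61.6 CPM in HSC-KO ECs, and 120.4 to 148.3 CPM in control and 157.6 to 166.3 CPM in HSC-KO livers. *Aldh7a1*, of lysine breakdown, passed in neither preparation, with a log2 fold change of 0.44 in liver (SE 0.13, adjusted p = 0.188) and -0.25 in macrophages (SE 0.13, adjusted p = 0.243). *Dnase1l1* had one of -0.23 in ECs (SE 0.13, adjusted p = 0.292) and 0.54 in macrophages (SE 0.13, adjusted p = 0.0246), the latter under the fold threshold. *Adam22* had one of -0.44 in ECs (SE 0.31, adjusted p = 0.372) and 1.63 in macrophages (SE 0.20, adjusted p = 0.00148), with 4.47 to 6.22 CPM in control and 14.7 to 18.6 CPM in HSC-KO macrophages.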

How the results depend on the processing

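Of 562 log2 fold changes of the members recomputed under an alternative, 546 kept their direction and 16 did not. The number of members called in ECs was 5, all lower (965 of 16053 genes tested were called lower). It was 8 by DESeq2 (1109 of 16053) and 7 with the replicate block (916 of 16053). With 1 library left out it was 4 to 8, where 719 to 1191 genes were called lower, and 8 without HSC-KO replicate 1 (1191 of 16648). In liver it was 5, all lower (248 of 17118), and 5 to 6 when 1 library was left out (101 to 244 genes called lower). In HSC-KO macrophages it was 1, lower (872 of 16337), and 2 by DESeq2 (1066 of 16337). With 1 library left out it was 1 to 3 there (686 to 915 genes called lower). In Smad4 cKO macrophages it was 0 (467 of 17517 genes called lower), and 1 by DESeq2 (602 of 17517) and 1 with DESeq2 size factors in edgeR (478 of 17517). With 1 library left out it was 0 to 1 there (312 to 497 genes called lower). Against control macrophages 8 members met the thresholds, 7 higher in ECs and 1 lower (2899 and 2902 of 16160 genes), and 8 to 8 did with 1 library left out. Against control livers 7 did, 6 higher and 1 lower (4589 and 5755 of 17279 genes), and 7 to 7 with 1 library left out. Over all lists 40 genes were called in ECs (2198 of 16053 genes tested were), and 35 to 47 with 1 library left out (1664 to 2496 genes were). The median share kept ran, with 1 control library left out, from 12% to 16.3% in HSC-KO replicate 1, 0.815% to 0.868% in replicate 2 and 0.579% to 0.629% in replicate 3. Gatm was short of the thresholds for a call in ECs without control replicate 2, control replicate 3 or HSC-KO replicate 2, which is a description, since that contrast chose the members. Hpgd in Smad4 cKO macrophages had an adjusted p of 0.1 with the replicate block. Directions turned only where the log2 fold change was small. In liver, Gpc1 had -0.19 without HSC-KO replicate 3. In HSC-KO macrophages, Gpc1 had 0 with library size alone, 0.25 without control replicate 2 and 0.22 without HSC-KO replicate 2, and Gatm -0.09 without control replicate 1 and -0.12 without HSC-KO replicate 2. In Smad4 cKO macrophages, Aass had 0.12 with library size alone, 0.07 without cKO replicate 1, 0.21 without cKO replicate 3 and 0.37 without control replicate 1, and Dnase1l3 -0.01 without cKO replicate 2. Without control replicate 2, Dnase1l3 had -0.2, Gpr182 -0.22, Oit3 -0.01, Adam23 -0.2 and Gpc1 -0.17. The ranges with 1 library left out reached 0.36 for Gpc1 in liver. In HSC-KO macrophages they reached 0.23 for Gatm and -0.41 for Gpc1. In Smad4 cKO macrophages they reached -0.47 for Aass, 0.31 for Dnase1l3, 0.61 for Gpr182, 0.71 for Oit3, 0.54 for Adam23 and 0.45 for Gpc1. The cause was not tested.

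Library size alone moved the median log2 fold change of all genes in ECs from 0.005 to 0.298, and calls from 965 lower and 1233 higher to 661 and 1739. In Smad4 cKO macrophages the median went to 0.191, and calls from 467 lower and 484 higher to 389 and 645. In liver, 425 genes were called, 794 by DESeq2, 271 with the replicate block and 188 to 451 with 1 library left out. In Smad4 cKO macrophages 951 were called, and 566 to 909 with 1 library left out. Deviations of libraries with the same replicate number correlated at 0.033 to 0.117 in ECs, 0.013 to 0.049 in liver, -0.107 to 0.162 in HSC-KO macrophages and -0.099 to 0.099 in Smad4 cKO macrophages, so the numbers were not taken as pairs. The strict filter tested 7 members in ECs and 5 in HSC-KO macrophages.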

Other observations

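Prostaglandin genes beside Hpgd also differed in sorted macrophage libraries, an observation made after the values were seen. In edgeR's quasi-likelihood test with Benjamini-Hochberg adjustment, 4 of 12 tested were called lower in HSC-KO macrophages and 2 higher, where 5.34% and 6.32% of all genes were. In Smad4 cKO macrophages 2 of 11 were called lower and 1 higher, where 2.67% and 2.76% of all genes were. *Ptgis*, prostacyclin synthase, fell from 88.8 to 0.711 CPM in HSC-KO (adjusted p = 0.000593) and from 160.6 to 35.6 CPM in Smad4 cKO macrophages (adjusted p = 0.0464). *Ptger2*, a receptor of prostaglandin E2, fell from 19.3 to 0.756 CPM (adjusted p = 0.00889) and from 14.6 to 0.862 CPM (adjusted p = 0.000156). *Slco2a1* fell from 17.8 to 0.688 CPM in HSC-KO macrophages (adjusted p = 0.00767) and had 25.7 and 24.7 CPM in Smad4FF control and cKO macrophages. *Slco2a1* had a mean of 422.1 CPM in control ECs, and the 12 pan-endothelial markers summed to 51.1 to 194.9 CPM in control and 12.1 to 51.2 CPM in HSC-KO macrophages, and to 446.9 to 1391 and 1132 to 1446 CPM in Smad4FF control and cKO macrophages. The 4 Kupffer cell markers summed to 27190 to 28800 CPM in control and 39.7 to 212 CPM in HSC-KO macrophages, and to 23020 to 29050 and 496.6 to 526.1 CPM in Smad4FF control and cKO macrophages. Lymphocyte markers summed to 10.4 to 19.2 CPM in control and 28.8 to 90.6 CPM in HSC-KO macrophages. The part of these cell types in the values was not tested. The difference between the 2 deletions was not tested.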
